A study of Mus musculus with 30 samples.

Results

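The response of wild-type (WT) J774A.1 macrophages to interferon gamma (IFNG) was measured in 18 of the 30 RNA-seq libraries of the study. They were chosen by their labels alone: 9 libraries came from untreated cells and 9 from cells given 100 ng/mL recombinant mouse IFNG for 4 h, with 3 libraries per treatment from each of the clones WT1, WT2 and WT3. The headers of the count columns give the untreated libraries an earlier time than the treated ones, and no mock treatment of 4 h is labelled. An effect of IFNG therefore cannot be told apart from one of time or handling. J774A.1 is a tumour-derived mouse cell line with the properties of macrophages. The count columns of WT2 and WT3 are headed with other clone names and were assigned by the title of the deposited table that holds them, so which of these clones is WT2 rests on those titles, while results pooled over clones do not depend on it. The 3 clones carry no edit and were grown by limiting dilution from cells that were not electroporated, so each clone descends from a single cell and is 1 sample of the line's variety. The remaining libraries, from clones lacking a transposable element in an intron of Dicer1, entered only the fit over all 30 libraries that is named among the alternatives. Nothing in the labels says whether the 3 libraries of a clone and treatment came from separate cultures, so p-values measure the spread between these libraries, which may be technical.

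IFNG is the type II interferon, made chiefly by T cells and natural killer cells, and is the classical activator of macrophages. It binds a receptor of IFNGR1 and IFNGR2 chains, whose kinases JAK1 and JAK2 activate STAT transcription factors. STAT dimers then bind gamma-activated sites (GAS) in promoters and enhancers. Among the early targets is the transcription factor IRF1, which acts through interferon-stimulated response elements (ISRE) together with other IRF family members. Products of later targets include GTPases that attack the vacuoles of intracellular microbes, chemokines that recruit T cells, and the machinery of antigen presentation.

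Counted fragments per library ran from 15566122 to 29000473 in untreated cells (median 23275996) and from 15579730 to 25337734 after IFNG (median 18071813). All 10 macrophage markers examined were present at 1 CPM (counts scaled to a common library size) or more, with a summed level of 5034 to 6395 CPM in untreated and 5002 to 6404 CPM in IFNG-treated libraries. Markers of B, NK and epithelial cells summed to at most 0.321 CPM in any library. Of the markers of other cell types, Cd5, S100a8, Pdgfra and Cdh5 alone reached a mean of 1 CPM, and Cd5 was the highest, at up to 43.4 CPM in WT1. Clone WT1 also held less of the macrophage surface protein gene Adgre1 (F4/80), at 10.4 ± 1.3 CPM (SD, n = 3) in untreated libraries against 101 ± 6.8 in WT2 and 42.5 ± 3.3 in WT3.

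After IFNG a large share of the transcriptome had moved by small amounts and a small share by very large amounts. Of 13423 genes tested, 3003 (22.4%) were higher after IFNG and 3187 (23.7%) lower at an adjusted p under 0.05 (edgeR quasi-likelihood F test with clone as a block), so 46.1% of genes passed in either direction. In bulk RNA a change in the number of responding cells cannot be told apart from a change in RNA per cell. The median log2FC of the higher genes was 0.34 and that of the lower genes -0.25, and 4475 of the called genes moved by less than 0.5 on the log2 scale. Genes that rose by more than 1 on the log2 scale, called IFNG-stimulated genes (ISGs) here, numbered 520 (3.87%), and those that fell by more than 1, called IFNG-repressed genes, numbered 157 (1.17%). All 9 IFNG libraries lay above all 9 untreated libraries for 913 genes (6.8%) and below them for 582 genes (4.34%). Within each clone taken alone, the groups did not overlap for 1606 higher genes (12%) and 1447 lower genes (10.8%).

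The 2 arms differed in reach. Among the ISGs, 225 exceeded a log2FC of 2, 123 exceeded 3, 63 exceeded 4 and 23 exceeded 8. Among the repressed genes, 28 fell below -1.5, 9 below -2 and 2 below -2.5, these last being Cxcl2 and Cxcr4. The ISGs took between 1.12% and 1.2% of a library's counts in untreated cells and between 4.52% and 5.00% after IFNG. The repressed genes went from between 0.616% and 0.781% to between 0.232% and 0.385%. Of the ISGs, 153 had an untreated mean under 1 CPM, 371 had an IFNG mean of at least 5 CPM and 124 one of at least 100 CPM. Normalization by library totals or by the upper quartile moved the median log2FC of all genes from -0.003 to -0.05 under both, and the share of calls that were higher from 48.5% to 34.5% and 36%, while the ISGs numbered 483 and 486. Directions of changes much under 0.1 on the log2 scale therefore rest on the normalization.

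**Figure D1:**
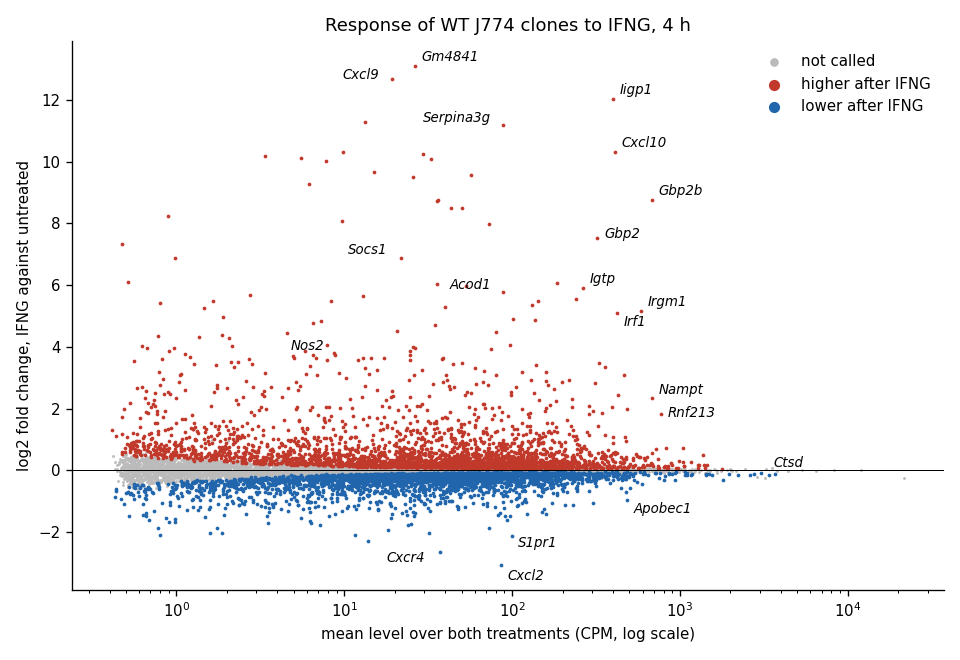
The log2 fold change of IFNG-treated against untreated WT libraries (vertical axis) is plotted against the mean level of each tested gene in CPM (horizontal axis, log scale), with higher, lower and uncalled genes in separate colours. Rises reached beyond 12 on the log2 scale at several genes, Iigp1 and Cxcl9 among them, and falls reached no further than -3.07 at Cxcl2.

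The 4 genes used to check the response rose in every clone. They were Irf1 (ENSMUSG00000018899.16, chr11:53770014-53778374, plus strand), Gbp2 (ENSMUSG00000028270.12, chr3:142620602-142638008, plus strand), Igtp (ENSMUSG00000078853.8, chr11:58199556-58207591, plus strand) and Cxcl10 (ENSMUSG00000034855.13, chr5:92346638-92348889, minus strand), all in GRCm38 coordinates. Their promoter windows are shown because GAS and ISRE are the sequences through which STAT and IRF factors are known to act. The windows were taken from RefSeq on GRCm38.p6 and run from 250 bases before to 50 bases after an annotated transcription start. The search was for TTCNNNGAA (GAS, which reads the same on both strands) and for GAAA, any 2 bases and GAAA again (ISRE, on either strand), and matches are in capitals. Socs1, a feedback inhibitor of JAK kinases, and Irf8, a macrophage lineage factor, are added because their windows hold repeated matches.
Irf1, chr11:53769764-53770063, plus strand: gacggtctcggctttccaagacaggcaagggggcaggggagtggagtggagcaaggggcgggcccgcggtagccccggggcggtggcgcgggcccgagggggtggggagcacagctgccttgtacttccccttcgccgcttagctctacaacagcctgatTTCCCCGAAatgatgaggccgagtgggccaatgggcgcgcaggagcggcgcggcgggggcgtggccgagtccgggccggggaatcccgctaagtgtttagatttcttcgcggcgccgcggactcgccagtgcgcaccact
Gbp2, chr3:142620413-142620712, plus strand: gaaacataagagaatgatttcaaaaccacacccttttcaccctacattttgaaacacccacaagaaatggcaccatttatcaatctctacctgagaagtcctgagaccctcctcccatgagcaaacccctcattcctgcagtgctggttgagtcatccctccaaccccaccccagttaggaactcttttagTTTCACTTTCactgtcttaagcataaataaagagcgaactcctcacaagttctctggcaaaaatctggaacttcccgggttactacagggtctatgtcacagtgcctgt
Igtp, chr11:58199306-58199605, plus strand: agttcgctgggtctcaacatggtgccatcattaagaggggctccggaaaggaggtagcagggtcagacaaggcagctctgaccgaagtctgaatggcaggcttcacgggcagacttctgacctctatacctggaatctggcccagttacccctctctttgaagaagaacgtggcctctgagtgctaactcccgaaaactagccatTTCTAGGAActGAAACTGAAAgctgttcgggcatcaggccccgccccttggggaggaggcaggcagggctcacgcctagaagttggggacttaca
Cxcl10, chr5:92348840-92349139, minus strand: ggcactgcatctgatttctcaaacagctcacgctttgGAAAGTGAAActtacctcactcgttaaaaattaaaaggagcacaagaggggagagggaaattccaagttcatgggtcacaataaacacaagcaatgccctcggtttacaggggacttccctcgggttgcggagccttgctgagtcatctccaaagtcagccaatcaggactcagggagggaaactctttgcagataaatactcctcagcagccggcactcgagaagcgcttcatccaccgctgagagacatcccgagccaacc
Socs1, chr16:10785487-10785786, minus strand: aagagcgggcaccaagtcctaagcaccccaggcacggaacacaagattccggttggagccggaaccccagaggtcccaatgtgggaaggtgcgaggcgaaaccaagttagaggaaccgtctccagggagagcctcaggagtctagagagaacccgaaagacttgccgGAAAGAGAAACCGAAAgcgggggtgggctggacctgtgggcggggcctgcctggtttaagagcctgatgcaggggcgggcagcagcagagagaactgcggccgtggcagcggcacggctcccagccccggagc
Irf8, chr8:120736108-120736407, plus strand: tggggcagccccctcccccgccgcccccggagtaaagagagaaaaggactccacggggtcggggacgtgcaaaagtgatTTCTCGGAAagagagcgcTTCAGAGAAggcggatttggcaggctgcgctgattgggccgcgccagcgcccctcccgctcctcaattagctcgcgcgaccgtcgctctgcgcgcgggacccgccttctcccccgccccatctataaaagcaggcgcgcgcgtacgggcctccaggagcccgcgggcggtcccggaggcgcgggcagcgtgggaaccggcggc

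Irf1 and Irf8 each had 2 windows in the table, of which the first is shown, and neither motif stood in the second window of either gene. The Irf1 window shown held 1 GAS match, beginning 90 bases before the start, and no ISRE match. The Gbp2 window held 1 ISRE match on the opposite strand, 59 bases before the start. Igtp held both, a GAS match at 45 bases and an ISRE match at 34 bases before the start. Cxcl10 held an ISRE match 213 bases before the start. Socs1 held overlapping ISRE matches at 83 and 77 bases, and the Irf8 window shown held GAS matches at 171 and 153 bases before the start. The windows of Cxcl9, Cd274, Cxcl2, Cxcr4 and Dusp6, genes described further on, held neither motif, which says only that these letters are not in those windows.

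Over all genes, 9130 of the 13423 tested had at least 1 window in the table, 347 of the 520 ISGs among them. The ISRE letters stood in 16.2% of the windows of ISGs, in 4.43% of those of genes that rose by less than 1, in 3.55% of those of repressed genes, in 2.63% of those of genes that were not called and in 3.44% of all windows in the table. The GAS letters stood in 13.3%, 8.63%, 4.73%, 6.65% and 8.30% of the same sets of windows. All windows in the table include those of genes not tested here. Over the windows of all genes tested, 3.28% held ISRE letters and 6.75% GAS letters. For genes that fell by less than 1 the shares were 1.72% and 4.67%. In the 123 ISGs above a log2FC of 3, a class set after the values were seen, 74 genes had a window and 37.5% of their windows held ISRE letters and 20.5% GAS letters. A match is a description of the sequence and not evidence of binding.

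The untreated level of Irf1 ran from 21.7 to 26.5 CPM with a median of 23.4, and the IFNG level from 726 to 965 with a median of 788. The lowest treated library was far above the highest untreated one in all 3 clones. Irf1 rose by 5.10 ± 0.03 (log2FC ± SE, adjusted p = 2.0e-32). Its rises in WT1, WT2 and WT3 were 5.17, 5.00 and 5.11, without a detected difference between clones (adjusted p = 0.55, interaction of clone and treatment).

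Gbp2, a guanylate-binding protein of the vacuole-attacking GTPases, went from 2.42, 3.57 and 4.59 CPM (lowest, median and highest untreated library) to 564, 635 and 728 CPM. Igtp (Irgm3), an immunity-related GTPase, went from 7.67, 8.50 and 9.94 CPM to 447, 525 and 590 CPM. Cxcl10, a chemokine that draws T cells through the receptor CXCR3, went from 0.278, 0.606 and 1.14 CPM to 666, 802 and 992 CPM. The treated and untreated libraries did not overlap for any of the 3 genes. The log2FC was 7.52 ± 0.07 for Gbp2, 5.90 ± 0.05 for Igtp and 10.30 ± 0.08 for Cxcl10 (adjusted p = 2.1e-30, 2.2e-30 and 2.6e-31). Igtp overlaps Irgm2 on the same strand, and fragments over both were counted for each.

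**Figure D2:**
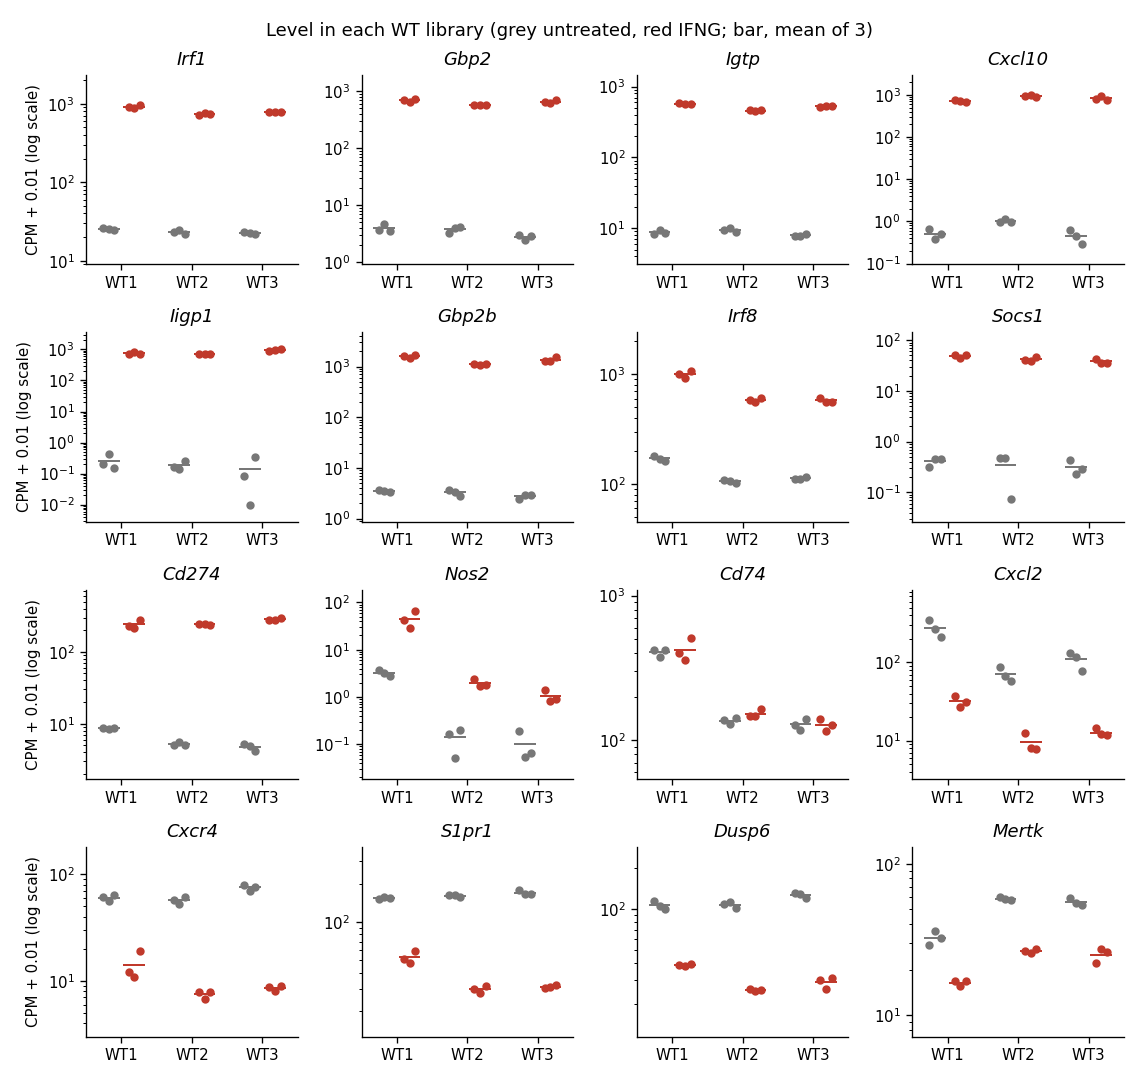
Levels of 16 genes in each of the 18 WT libraries are shown in CPM on a log axis (0.01 added), by clone, with untreated libraries in grey and IFNG-treated libraries in red and a bar at the mean of 3. Irf1 and Irf8 rise from levels that are already well above 1 CPM, Iigp1 and Cxcl10 from near the floor, Nos2 is higher in untreated WT1 than in the treated libraries of the other clones, and Cd74 stays at the level of its clone.

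The largest rises belonged to GTPases, CXCR3 ligands and serpins. Gm4841, a member of the interferon-inducible GTPase cluster on chromosome 18, had no count in any of the 9 untreated libraries and 40.6 to 68.4 CPM (median 48.5) after IFNG, which is at least 3681-fold higher than a floor of 3 counts over the untreated group. Cxcl9 likewise went from no untreated count to between 33.2 and 49.7 CPM, at least 2694-fold higher. The serpin Serpina3i (5.35 to 8.16 CPM, at least 481-fold higher) and the apolipoprotein gene Apol6 (1.18 to 2.81 CPM, at least 124-fold higher) were also without an untreated count. These 4 genes were therefore not detected at this depth before IFNG and were present in every treated library.

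Iigp1 (Irga6), a GTPase that coats parasite vacuoles, had 39 counts in all untreated libraries together and 138270 after IFNG. Its level went from at most 0.408 CPM to between 691 and 1011 CPM (median 732), a log2FC of 12.05 ± 0.10 (adjusted p = 3.1e-31). Iigp1 thus became one of the most abundant induced transcripts from near silence. Genes with 1 or 2 untreated counts have only a ratio with a wide counting interval. For BC023105 it was 5674 (95% exact interval 1018 to 224150), for Cxcl11 2471 (443 to 97656), for Gbp5 2071 (573 to 17108) and for Gm5970 1698 (470 to 14028). Serpina3g reached 150 to 237 CPM from at most 0.208, Serpina3f 48.6 to 72.8 CPM from at most 0.243 and Tgtp2 49.9 to 82.0 CPM from at most 0.170. Serpina3 and Tgtp genes are near-identical copies of each other, so their counts may be split unevenly among copies.

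By absolute level the response was led by a partly different set. Gbp2b (also known as Gbp1) went from 2.39 to 3.72 CPM untreated to 1090, 1313 and 1718 CPM (lowest, median, highest), a log2FC of 8.76 ± 0.07 (adjusted p = 1.7e-31). Per kilobase of transcript it reached a mean of 483 CPM, against 364 for Cxcl10, 257 for Igtp, 255 for Gbp2 and 205 for Irf1. Irgm1, a regulator of the other immunity-related GTPases, went from 22.7 to 40.3 CPM to 1075 to 1224 CPM. Nampt, the rate-limiting enzyme of NAD salvage, went from 202 to 237 CPM to 1022 to 1327 CPM, and Rnf213, a large ubiquitin ligase, from 277 to 420 CPM to 1119 to 1263 CPM. Neither gene was low before treatment. Their log2FC of 2.36 ± 0.04 and 1.83 ± 0.05 were well below the median of 7.52 of the guanylate-binding protein list. Gm8995, one of a group of near-identical very large GTPase genes, and Ifi203, a DNA-binding protein gene that shares counts with the overlapping Mndal, completed the rule's list of largest rises at medians of 856 and 712 CPM after IFNG.

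The GTPase families rose as wholes. All 13 genes of the guanylate-binding protein list and all 12 tested immunity-related GTPase genes were called higher, against 22.4% of all genes. Their median log2FC was 7.52 and 7.33. The first list also counts the very large GTPase genes Gvin1 and Gm4070, which had its lowest rises, at 3.85 and 3.61. The genes of the guanylate-binding protein list together went from 0.00353% to 0.00478% of a library's counts to 0.281% to 0.367%. The immunity-related GTPase genes went from 0.00806% to 0.0129% to 0.340% to 0.411%. Several of these genes lie side by side. There were 9 runs of at least 5 neighbouring tested genes that all were ISGs, and they held 78 genes. A run of 7 genes at chr3:142493978-142746870 held Gbp5, Gbp7, Gbp3, Gbp2b and Gbp2. A further 7 genes at chr5:105014150-105346472 held Gbp8, Gbp9, Gbp4, Gbp10, Gbp6 and Gbp11, and 10 genes at chr11:48861968-49135387 ran from Irgm1 through Tgtp1 and Tgtp2 to Ifi47. A run of 6 genes on chromosome 18 held Iigp1, Gm4841, Gm4951, Gm5970, BC023105 and F830016B08Rik, and the lowest log2FC in it was 9.5. The longest run, 12 genes at chr1:173630917-174031810, held the Ifi200 family of DNA sensors (log2FC 2.05 to 3.66). The remaining 4 runs held Trim genes, Gvin1 and its relatives (both on chromosome 7), Slfn genes (chromosome 11) and Sp100, Sp110 and Sp140 (chromosome 1).

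The components of the pathway itself moved unequally. Of the 10 receptor, JAK and STAT genes, 7 were higher and 3 lower, against 22.4% and 23.7% of all genes. The receptor chain genes Ifngr1 and Ifngr2 both fell, Ifngr1 from 31.4, 34.7 and 39.4 CPM (lowest, median, highest) to 19.7, 22.4 and 31.4 CPM and Ifngr2 from 75.6, 84.4 and 91.7 to 48.4, 57.1 and 63.4 CPM. All treated libraries were below the lowest untreated one for both, by a narrow margin for Ifngr1. The log2FC was -0.58 ± 0.05 for Ifngr1 and -0.54 ± 0.04 for Ifngr2 (adjusted p = 2.2e-10 and 4.2e-11). Jak1 rose by 0.15 ± 0.03 and Jak2 by 0.61 ± 0.04.

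Among the STAT genes, Stat2, a factor of type I interferon signalling, rose by 2.71 ± 0.04 and Stat3, which acts downstream of many cytokines, by 2.31 ± 0.05. Of the 9 interferon regulatory factor genes, counting Batf2, 7 were higher and 1 lower, against 22.4% and 23.7% of all genes. Their median was 0.99. Batf2 rose by 5.99 ± 0.07, Irf7 by 2.79 ± 0.09 and Irf8 by 2.46 ± 0.04, whereas Irf3, which is activated by phosphorylation in viral sensing, was not called at -0.08 ± 0.05 (adjusted p = 0.19). Under normalization by library totals or the upper quartile Irf3 passed the threshold, at -0.13 in both.

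Of the 10 tested genes for brakes on cytokine signalling, 7 were higher and 2 lower, against 22.4% and 23.7% of all genes. The share that was lower was thus near that of all genes. Their median was 0.63, and 4 rose by more than 1 on the log2 scale. Socs1, the feedback inhibitor of JAK kinases, went from 0.0632, 0.428 and 0.472 CPM to 36, 42.5 and 51.8 CPM, a log2FC of 6.89 ± 0.10 (adjusted p = 2.6e-26). Socs3, which restrains signals through gp130 receptors, rose by 4.91 ± 0.10, Cish by 4.84 ± 0.10 and the ISG15 protease gene Usp18 by 2.62 ± 0.07. The remaining genes of the list moved by less than 1 except for a single one. The steepest fall was that of Dusp1, a phosphatase of MAP kinases, at -1.35, named after its value was seen.

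Antigen presentation split by class. In the MHC class I list, 15 of 20 genes were higher and 0 lower, against 22.4% and 23.7% of all genes. The median of the list was 0.37. The transactivator gene Nlrc5 went from 7.27, 8.40 and 12.1 CPM to 124, 141 and 157 CPM (log2FC 3.94 ± 0.06, adjusted p = 4.3e-26), and the peptide transporter gene Tap1 rose by 3.18 ± 0.04. H2-T24 rose by 2.73 ± 0.08 and the peptide editor gene Tapbpl by 1.59 ± 0.04. The structural genes started high and rose little at 4 h: H2-K1 by 0.27 ± 0.03, H2-D1 by 0.28 ± 0.03 and B2m by 0.56 ± 0.03. The 5 genes that were not called were H2-Q7, H2-M3 and the chaperone genes Calr, Canx and Pdia3. H2 genes share sequence, so their separate values are uncertain.

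The immunoproteasome list was higher in 5 of 5 genes (median 0.58), led by Psmb9 at 1.31 ± 0.04 and Psmb10 at 0.94 ± 0.04, with Psmb8 at 0.58 ± 0.03. Of the 27 constitutive proteasome genes, 7 were higher, a share near the 22.4% of all genes, and 1 lower, against 23.7% of all genes. The median was 0.03. Under library totals or the upper quartile the counts higher and lower were 3 and 2, and without the clone term 2 and 0.

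MHC class II genes were not called in either direction in the main fit. Of the 10 genes of the list, 5 were tested and 0 passed in the main edgeR fit or DESeq2 (1 had an unadjusted p under 0.05). Normalization by library totals or the upper quartile, the fit over all 30 libraries and the fit without WT1 each called 1 gene lower. Without the filter on low counts all 10 were tested and 1 was called higher. Ciita, the class II transactivator, had 8 counts in all untreated and 22 in all IFNG libraries together, too few to pass the count filter. H2-Aa had 1 and 0 counts, H2-Eb1 2 and 4, and H2-Ab1 58 and 60, all of which lay in WT2. The invariant chain gene Cd74 was abundant, at 119, 141 and 423 CPM untreated and 116, 147 and 510 CPM after IFNG, with a log2FC of 0.07 ± 0.06 (adjusted p = 0.33). Its levels split by clone and not by treatment, with untreated means of 408 ± 25 in WT1, 136 ± 6.6 in WT2 and 129 ± 11 CPM in WT3 (SD, n = 3).

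The antiviral genes that are shared with the type I interferon response were all higher (21 of 21, median 2.05), against 22.4% of all genes. Ifit1, which binds foreign RNA caps, went from 0.555, 0.680 and 1.52 CPM to 9.23, 13.9 and 22.3 CPM, a log2FC of 4.07 ± 0.08 (adjusted p = 3.2e-23). Oasl2 rose by 3.59 ± 0.08, Rsad2 (viperin) by 3.17 ± 0.10 and the ubiquitin-like modifier Isg15 by 3.13 ± 0.10. The whole list took 0.0916% to 0.118% of counts before and 0.219% to 0.241% after IFNG, so its absolute gain was smaller than that of either GTPase family. Nucleic acid sensor genes were higher in 14 of 15 cases (median 1.66), led by Zbp1 at 4.76 ± 0.11. The exception was Aim2, the inflammasome sensor of DNA, at -0.15 ± 0.04 (adjusted p = 0.0012). Without clone WT2 the fall of Aim2 was -0.09 and did not pass.

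Interferon-induced PARP genes with Dtx3l were higher in 7 of 7 cases, with Parp14 at 3.47 ± 0.04, and Schlafen and TRIM genes in 16 of 16 (median 1.96), with Slfn5 at 4.44 ± 0.12, Slfn8 at 2.55 ± 0.05 and Trim21 at 2.45 ± 0.04. The smallest rise among them, that of Trim14 at 0.11 ± 0.04 (adjusted p = 0.043), was named after its value was seen and passed under only 1 of 12 alternatives, the stricter count filter. Parp14 shares fragments with the overlapping Gm49730. Among interferon-responsive transcription and chromatin genes 9 of 11 were higher and 2 lower, with Pml, the organizer of nuclear bodies, at 1.97 ± 0.04. Beside these lists, 22.4% of all genes were higher and 23.7% lower.

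**Figure D3:**
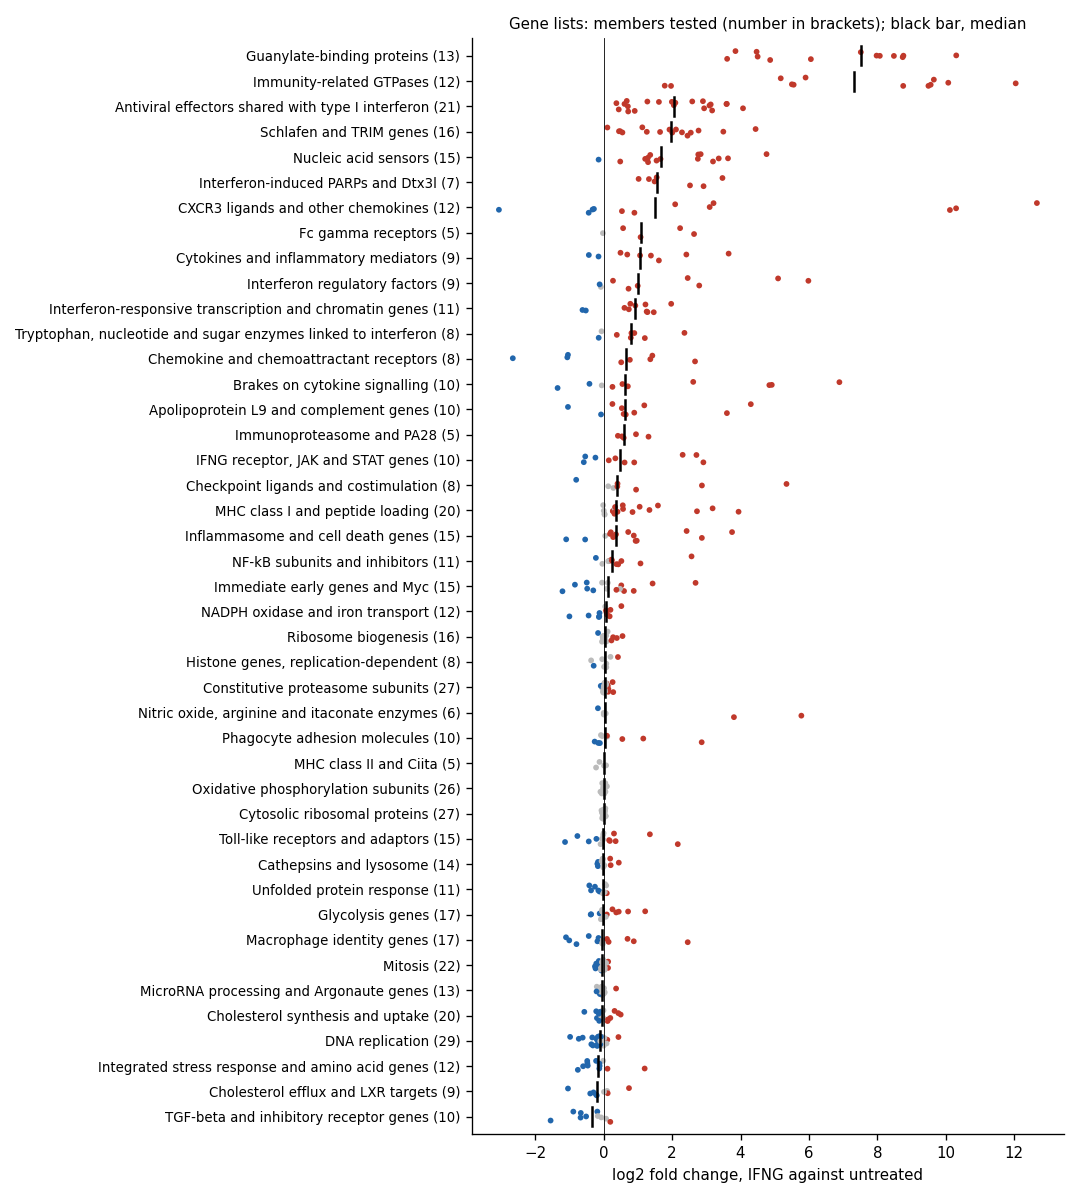
Each point is the log2 fold change of 1 tested gene in the pooled fit, with 1 row per gene list and a black bar at the median of the list. The guanylate-binding proteins and immunity-related GTPases have medians above 7, while ribosomal proteins and oxidative phosphorylation subunits are gathered at 0.

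Secreted signals and surface receptors changed in both directions. In the chemokine list 8 of 12 genes were higher and 4 lower, against 22.4% and 23.7% of all genes. Besides the CXCR3 ligands, the monocyte chemoattractant genes Ccl2 and Ccl12 rose by 2.09 ± 0.07 and 3.21 ± 0.06. In contrast Cxcl2, a chemokine that draws neutrophils, fell from 57.2, 119 and 353 CPM to 7.78, 12.7 and 37.6 CPM, without overlap of treated and untreated libraries. Its log2FC of -3.07 ± 0.12 (adjusted p = 6.8e-17) was the lowest of all called genes, and no difference was detected between the falls of the clones, at -3.13, -2.89 and -3.12 (adjusted p = 0.93). Ccl3 fell by 0.44 on the log2 scale.

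Of 9 tested cytokine genes, 7 were higher and 2 lower, against 22.4% and 23.7% of all genes. The share that was lower was thus near that of all genes. The death ligand gene Tnfsf10 (TRAIL) rose by 3.65 ± 0.10, Il18bp, which binds IL-18, by 2.42 ± 0.11 and Il15, a survival factor for NK and T cells, by 1.38 ± 0.08. Il12b and Ifnb1 were not tested, with 0 untreated counts each and 1 and 0 counts after IFNG. Il1b was also too low to test, with 137 counts over the untreated and 33 over the IFNG libraries.

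The T cell checkpoint ligand gene Cd274 (PD-L1) went from 4.17, 5.13 and 8.81 CPM to 218, 246 and 298 CPM, a log2FC of 5.34 ± 0.10 (adjusted p = 1.1e-23). The costimulatory genes Cd40 and Cd86 rose by 2.87 ± 0.15 and 0.95 ± 0.05, while Vsir (VISTA) fell to a log2FC of -0.81 ± 0.06. Fc gamma receptor genes were higher in 4 of 5 cases, against 22.4% of all genes. Fcgr4 rose by 2.64 ± 0.06, Fcgr1 by 2.23 ± 0.04 and Fcgr3 by 1.08 ± 0.04. Their shared signalling chain gene Fcer1g was not called at -0.02 ± 0.03 (adjusted p = 0.55), and under library totals it was called lower at -0.07. The adhesion molecule gene Icam1 rose by 2.86 ± 0.06.

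Toll-like receptor and adaptor genes changed in both directions. Of 15 such genes, 6 were higher and 4 lower, against 22.4% and 23.7% of all genes, with a median of -0.01. The share that was lower was thus near that of all genes. Tlr3, which senses double-stranded RNA, rose by 2.17 ± 0.06 and the adaptor gene Myd88 by 1.35 ± 0.04. Tlr13 and Tlr8, which sense bacterial and single-stranded RNA, had log2FC of -1.13 ± 0.08 and -0.77 ± 0.05. In the inflammasome and cell death list 12 of 15 were higher, with the death receptor gene Fas at 3.75 ± 0.10 and the noncanonical inflammasome caspase gene Casp4 at 2.87 ± 0.06. Nlrp3, a sensor of the canonical inflammasome, fell from 78.5, 85.4 and 113 CPM to 34.8, 39.9 and 59.7 CPM, a log2FC of -1.10 ± 0.04 (adjusted p = 1.1e-17).

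Of the 6 tested genes for nitric oxide, arginine and itaconate enzymes, 2 were higher, 1 lower and 3 not called, with a median of 0.03. Those that rose were Acod1 and Nos2, both from low levels. Acod1, which makes itaconate, went from 0.367, 0.784 and 9.71 CPM to 66.1, 89.8 and 395 CPM, a log2FC of 5.78 ± 0.15 (adjusted p = 4.6e-21). Nos2, the inducible nitric oxide synthase, rose by 3.81 ± 0.20 (adjusted p = 1.4e-14). Its level after IFNG was 45.5 ± 18 CPM in WT1, 1.97 ± 0.40 in WT2 and 1.03 ± 0.32 in WT3 (SD, n = 3), from untreated means of 3.24, 0.130 and 0.0924 CPM. Untreated WT1 thus had more Nos2 than treated WT2 or WT3, while the log2FC of 3.82, 3.97 and 3.31 did not differ detectably between clones (adjusted p = 0.98). Ass1, Asl and Gch1 were not called. NADPH oxidase and iron genes were 6 higher and 5 lower of 12, against 22.4% and 23.7% of all genes. Without the clone term these counts were 1 and 3, without WT3 3 and 3, and 3 and 5 under library totals, the upper quartile or counts summed per clone. All 12 lay within 1 on the log2 scale except Hmox1, the heme oxygenase gene, at -1.0 ± 0.05.

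The 12 steepest falls named by the rule were, besides Cxcl2, those of genes with varied roles, with several receptor genes among them. Cxcr4, the receptor of CXCL12, went from 52.2, 61.8 and 79.8 CPM to 6.79, 8.75 and 19.3 CPM (log2FC -2.66 ± 0.12, adjusted p = 8.6e-16). S1pr1, a sphingosine 1-phosphate receptor, went from 152, 162 and 177 CPM to 27.6, 31.2 and 59.7 CPM (log2FC -2.12 ± 0.10, adjusted p = 1.4e-15). Neither gene had a treated library that overlapped the untreated ones. Dusp6, a phosphatase that restrains ERK, went from 101, 113 and 132 CPM to 25.3, 30.1 and 39.4 CPM (log2FC -1.87 ± 0.07). Trem1, a receptor that amplifies inflammatory signals, and Cd300lb, an activating receptor of myeloid cells, had log2FC of -1.93 ± 0.10 and -2.03 ± 0.13. Arhgap22 and Fgd3, regulators of small GTPases of the cytoskeleton, had log2FC of -2.29 ± 0.09 and -1.74 ± 0.12. The remaining genes of the rule's list of steepest falls were Nol4l (-2.09), Pxdc1 (-1.77), Tcim (-1.76) and Slc26a11 (-1.70). Tcim did not pass the threshold without the clone term.

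Chemoattractant receptor genes changed in both directions, with 5 higher and 3 lower of 8 tested and a median of 0.64. Of all genes, 22.4% were higher and 23.7% lower. The largest rise was that of Ccr1, a receptor of inflammatory chemokines, at 2.67 ± 0.17, from 0.126, 0.389 and 1.65 CPM to 1.81, 2.38 and 6.19 CPM, named after its value was seen. Ccrl2, a nonsignalling receptor of chemerin, went from 5.78, 7.97 and 18.1 CPM to 22.3, 23.3 and 32.8 CPM (log2FC 1.42 ± 0.10, adjusted p = 6.2e-12). Besides Cxcr4, C5ar1 and Cx3cr1 were lower. C5ar1, the receptor of the complement fragment C5a, went from 357, 410 and 473 CPM to 164, 183 and 272 CPM (log2FC -1.05 ± 0.04). Cx3cr1 had a log2FC of -1.07 ± 0.09, which did not pass without the clone term. In the macrophage identity list 5 of 17 were higher and 7 lower, against 22.4% and 23.7% of all genes, with a median of -0.05. Mertk, a receptor for the clearance of dying cells, went from 28.9, 55.4 and 60.2 CPM to 15.5, 25.7 and 27.3 CPM (log2FC -1.10 ± 0.05, adjusted p = 2.0e-16). The lineage factor Cebpa had a log2FC of -1.01 ± 0.09, whereas its relative Cebpb rose by 0.88 ± 0.06. Csf1r, the receptor of the macrophage growth factor CSF1, moved by only -0.13 ± 0.03, and Adgre1 was not called. In the list of TGF-beta and inhibitory receptor genes 6 of 10 were lower and 1 higher, with the signal transducer gene Smad3 at -1.55 ± 0.07 and the receptor gene Tgfbr1 at -0.52 ± 0.04. The cholesterol exporter gene Abca1 had a log2FC of -1.05 ± 0.05.

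By absolute level, the rule names the 6 largest falls in mean CPM, a choice that favours abundant genes. Ctsd (cathepsin D, counted together with the overlapping Gm49369) went from a median of 3743 to 3287 CPM, the desaturase gene Scd2 from 1821 to 1442, the ferritin gene Fth1 from 2635 to 2424 and the actin-bundling gene Lcp1 from 2918 to 2621. Their log2FC lay between -0.30 and -0.13, and those of Scd2 and Fth1 did not pass without the clone term. The RNA editing enzyme gene Apobec1 went from a median of 697 to 327 CPM (log2FC -0.96 ± 0.04), and Ccnd1, the G1 cyclin, from 593 to 349 CPM (log2FC -0.69 ± 0.03).

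Of 29 DNA replication genes 19 were lower and 2 higher, against 23.7% and 22.4% of all genes, with a median of -0.12. The counts were 21 and 1 under library totals and under the upper quartile, and 13 and 1 without the clone term. E2f2, which drives S phase genes, went from 53.9, 56.7 and 58.3 CPM to 25.3, 28.4 and 31.6 CPM (log2FC -0.98 ± 0.04, adjusted p = 2.3e-17). The replication licensing genes Cdc6 and Cdt1 had log2FC of -0.73 ± 0.05 and -0.62 ± 0.04, and Pola2, a polymerase alpha subunit gene, rose by 0.43 ± 0.04. Of the 22 mitosis genes 6 were lower and 2 higher, 12 and 1 under both other normalizations, and 3 and 1 without the clone term. None of the 27 ribosomal protein genes and none of the 26 oxidative phosphorylation genes was called in edgeR with its TMM factors, where 1 and 0 had an unadjusted p under 0.05, and DESeq2 called 1 and 0. Library totals called 9 of the ribosomal protein genes and 6 of the oxidative phosphorylation genes lower, and the upper quartile 6 and 4. Glycolysis genes were 6 higher and 3 lower of 17 (5 and 7 under library totals, 3 and 1 without the clone term), with the hexokinase gene Hk2 at 1.21 ± 0.06.

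Stress and growth regulators were mixed. The immediate early list held 6 higher and 5 lower of 15, with Egr2 at 2.69 ± 0.13 and Atf3 at 1.43 ± 0.07. In the NF-kB list 8 of 11 were higher and 1 lower, with the coactivator gene Bcl3 at 2.57 ± 0.06 and the inhibitor gene Tnfaip3 (A20) at 1.07 ± 0.12, which did not pass without the clone term. The integrated stress response list was lower in 9 of 12 cases and higher in 2, one of which was Trib3 at 1.2 ± 0.11. Of all genes, 23.7% were lower and 22.4% higher. Without the clone term the stress response list had 3 lower and 1 higher. Cholesterol synthesis genes were 6 higher and 8 lower of 20, none beyond 1 on the log2 scale, and the counts were 4 and 12 under library totals or the upper quartile, 3 and 3 without the clone term and 6 and 5 without WT2.

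The agreement of the 3 WT clones was then examined clone by clone. Within WT1, 1657 genes were higher (11.8% of those tested in that clone) and 1334 lower (9.47%). WT2 had 2284 higher (17.4%) and 2227 lower (17%), and WT3 2499 higher (18.6%) and 2345 lower (17.5%). These counts came from separate fits, each with its own estimate of spread. In 1 fit over the 18 libraries, with a shared estimate, WT1 had 1962 higher and 1964 lower. WT2 then had 1955 and 1890, and WT3 2421 and 2064, so the smaller counts of WT1 than of WT2 depended on the separate fits. Of 12919 genes tested in all 3 clones, 1353 were called higher and 1065 lower in every clone. Pearson's r of the log2FC across genes was 0.939 for WT1 and WT2, 0.942 for WT1 and WT3 and 0.954 for WT2 and WT3. Restricted to the 10319 genes whose mean reached 5 CPM it was 0.968, 0.968 and 0.984. Genes are not independent replicates, and these values describe the libraries only.

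**Figure D4:**
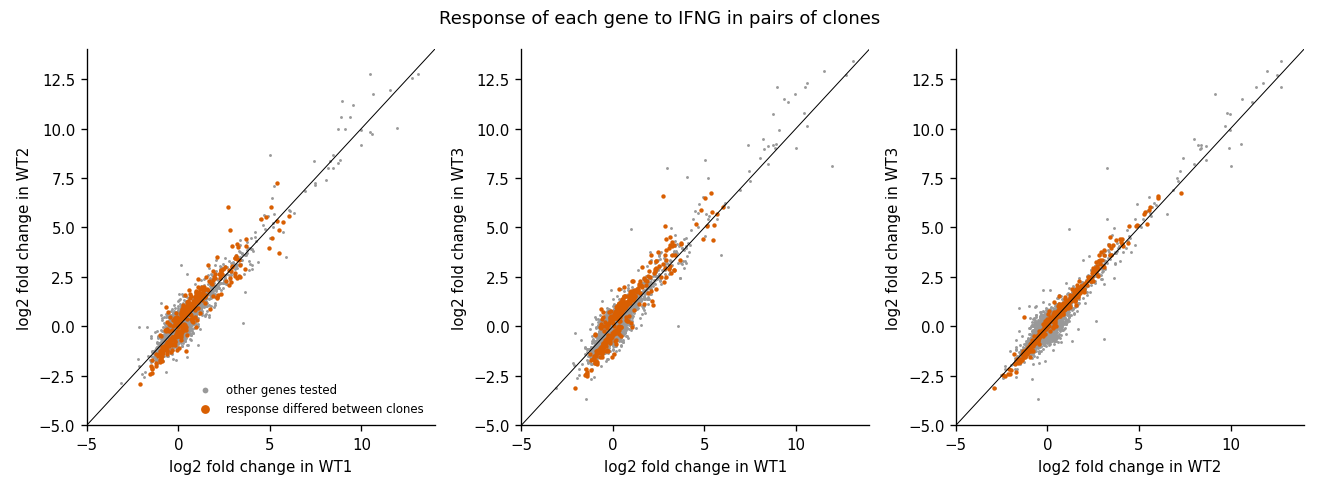
The log2 fold change of each gene in 1 WT clone is plotted against that in another, for the 3 pairs of clones, with genes whose response differed between clones in orange. The points follow the diagonal in all panels, and the WT2 and WT3 panel is the tightest, with r of 0.954.

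Calls in opposite directions were rare. In 16 genes 1 clone was called higher and another lower, and 4 genes were called in all 3 clones with differing signs. These 4, named after their values were seen, were Dusp5, Maf, Zbtb38 and 6330403L08Rik, and in each of them WT1 went against WT2 and WT3. Dusp5, a phosphatase of nuclear ERK, went from 29.5 ± 6.1 to 18.7 ± 5.1 CPM in WT1 (SD, n = 3), while WT2 changed from 4.5 ± 0.19 to 8.84 ± 1.3 CPM and WT3 from 5.34 ± 0.56 to 10.1 ± 0.60 CPM. It therefore fell in the clone where it was high and rose where it was low, with log2FC of -0.64, 0.98 and 0.89 (adjusted p of the difference = 6.2e-05). Maf, a factor of resident macrophages, had log2FC of 0.34, -0.12 and -0.37, with an untreated mean of 187 CPM in WT1 against 269 in WT2 and 373 in WT3.

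Genes induced in a pair of clones were, with few exceptions, also called higher in the remaining one. Genes called above 1 on the log2 scale made up 3.83%, 4.23% and 4.65% of those tested in WT1, WT2 and WT3, and genes called below -1 made up 0.83%, 1.31% and 1.7%. Of 480 genes called with a log2FC above 1 in both WT2 and WT3, 480 were higher in WT1, 472 of them were called there and 406 exceeded 1. For WT2 the numbers were 432 genes in the other clones, 432 higher and 426 called, and for WT3 413, 413 and 412. On the repressed side, 145 of 146 genes that fell by more than 1 in WT2 and WT3 were lower in WT1 and 133 were called, but only 70 fell by more than 1. Sizes in WT1 were smaller than in both other clones for 299 of the 480 induced genes and for 124 of the 146 repressed genes. The median log2FC in WT1 was 1.81 against 1.94 in the others for the induced genes and -0.99 against -1.31 for the repressed ones. Because genes were picked by their size in the other clones, the clone left out is at a disadvantage. For comparison WT2 was smaller than both others in 162 of 432 induced genes and WT3 in 54 of 413.

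A difference in response between clones was found for 332 genes (2.47% of 13423, edgeR interaction F test). WT1 was the clone farthest from the others in 270 of them, WT3 in 46 and WT2 in 16. The column headers number the WT1 libraries apart from those of WT2 and WT3. A property of clone WT1 therefore cannot be told apart from an effect of processing order. Without WT1 the test of WT2 against WT3 called 19 genes, without WT2 it called 262 and without WT3 161. The direction was shared by all 3 clones in 281 of the 332, and in 235 of these the response was smallest in WT1, in 33 largest. Most ISGs, 405 of 520, had no detected difference between clones. The other 115 ISGs and 35 of the 157 repressed genes did differ, which are larger shares than the 2.47% of all genes. These genes were picked for a large response, which leaves more room for a detectable difference, so the shares are not like for like.

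The levels behind the smaller responses of WT1 differed between rises and falls. Among the 209 genes with a clone difference that were higher in the pooled fit, WT1 had the smallest rise in 163. In 111 of these 163 its untreated mean was above both other clones, and in 83 its IFNG mean was below both. Among all 13423 genes tested, the untreated mean of WT1 was above both others in 5935. Among the 97 genes with a clone difference that were lower in the pooled fit, WT1 had the smallest fall in 91. In 42 of these 91 its untreated mean was below both other clones, and in 73 its IFNG mean was above both, as it was in 5744 of all genes tested. No count over all genes was made for a mean below both others, so the 83 and the 42 have no background beside them. Both the size of a response and the untreated mean share the untreated libraries, so these counts are a description and no test.

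Cd40 had 19.6 ± 0.71 CPM in untreated WT1 against 5.42 ± 0.23 in WT2 and 4.56 ± 0.086 in WT3 (SD, n = 3), and reached 84.2 ± 4.4, 60.8 ± 3.9 and 56.9 ± 3.9 CPM after IFNG. Its rises were 2.1, 3.49 and 3.63 (adjusted p of the difference = 4.1e-10), so the clone with the smallest rise had the highest level after IFNG. Csf1, the macrophage growth factor gene, started at 9.40 ± 0.13, 4.52 ± 0.18 and 3.11 ± 0.44 CPM and reached 70.9 ± 3.3, 76.7 ± 1.6 and 69.0 ± 2.3 CPM. The treated levels of Csf1 lay within a narrow band while its rises were 2.92, 4.08 and 4.44 (adjusted p = 1.5e-09). Pim1, a growth-promoting kinase gene, started at 118 ± 11 CPM in WT1 against 31.7 ± 2.1 and 34.2 ± 3.6, with rises of 1.08, 2.37 and 2.28. Untreated WT1 was also the highest of the 3 clones for Cdc42ep2 (rises of 2.83, 4.86 and 5.05), Maff (1.6, 3.10 and 3.02) and Atf3 (0.98, 1.69 and 1.65).

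Other genes differed in the treated level. Fchsd2, a membrane-bending protein gene, had nearly the same untreated means in the clones (17, 18.3 and 19.2 CPM) and treated means of 35.2 ± 1.5, 61.4 ± 3.2 and 94.2 ± 8.1 CPM, with rises of 1.05, 1.75 and 2.28 (adjusted p = 1.1e-07). Cemip2 rose by 0.36, 1.56 and 1.90 and ended lowest in WT1, which had started highest. S1pr1 started at 154 ± 2.5, 160 ± 2.6 and 170 ± 6.1 CPM and ended at 52.8 ± 6.3, 29.6 ± 1.8 and 31 ± 0.75 CPM, so that more remained in WT1 (log2FC -1.54, -2.43 and -2.47, adjusted p = 1.1e-07). Tlr13 likewise remained higher in WT1 (log2FC -0.62, -1.41 and -1.40), as did Cxcr4 (-2.08, -2.93 and -3.14).

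The response of Irgm1 was larger in WT1. It rose by 5.51, 4.88 and 5.14 (adjusted p = 6.3e-06), from an untreated mean of 24.1 ± 1.2 CPM in WT1 against 38.8 ± 1.4 and 33.5 ± 1.1. Acod1 had the highest treated level in WT1 (357 ± 49 CPM against 93.3 ± 13 and 68.0 ± 3.0) and the smallest rise there (5.37, 7.27 and 6.72, adjusted p = 0.0013). Which property of the clones goes with these differences was not tested.

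**Figure D5:**
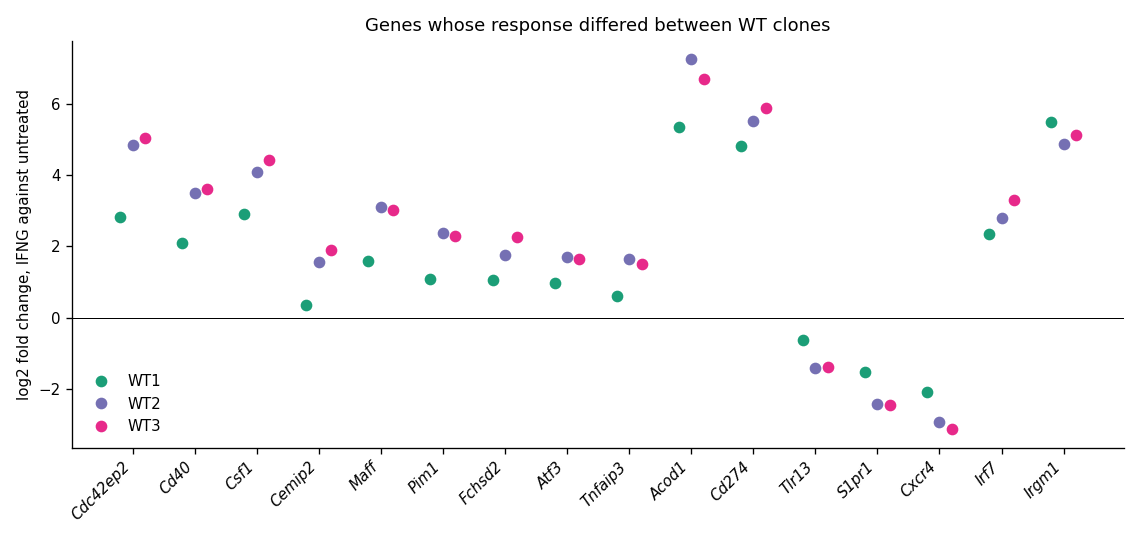
The log2 fold change of 16 genes with a difference of response between clones is shown for WT1, WT2 and WT3. WT1 lies nearest to 0 in most of them, as for Cemip2, Cd40 and Csf1, and farthest from 0 for Irgm1.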

How the data were processed

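Polyadenylated RNA of J774A.1 clones was sequenced in pairs on a NovaSeq. The authors trimmed reads with BBDuk, aligned them to mm10 (GRCm38) with HISAT2 2.1.0, kept uniquely aligned fragments, merged technical replicates with SAMtools 1.10 and counted fragments per gene with featureCounts 1.6.2 in reversely stranded mode. The deposited values are these raw counts, not normalized. Fragments over overlapping genes on the same strand were counted for each gene. The methods name a RefSeq annotation and the table header Gencode vM18. Gene positions came from GENCODE vM21, which shared 52480 of 54146 identifiers, all with the same span. The study itself used DESeq2 1.26.0. No column of another series was present.

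A quasi-likelihood model (edgeR 4.0.16 under R 4.3.3, with filterByExpr at a minimum count of 10 and TMM factors) was fitted to the counts of 18 libraries with terms for clone and treatment. P-values were adjusted by the Benjamini-Hochberg method over all genes tested, with a threshold of 0.05. Standard errors were derived from the log2FC and its F statistic, as |log2FC| over root F. Each clone was also fitted alone and, as an alternative, within 1 fit over the 18 libraries. Differences of response between clones were tested by the interaction of clone and treatment. CPM values used TMM factors. A gene without an untreated count was set against a floor of 3 counts over the group, and one with 1 to 3 counts has an exact 95% interval. Floors and intervals cover counting error only, as fragments carried no molecular identifiers.

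Members, gene lists and rules were chosen with earlier results of these data known. Genes named by the size of their change had an adjusted p under 0.05, a mean of at least 5 CPM in 1 treatment and no overlap of treated and untreated libraries in any clone. They were the 12 with the largest and the 12 with the lowest log2FC, the 10 largest rises and 6 largest falls in mean CPM, and up to 4 per list by absolute log2FC. Other rules did not set all of these conditions. They named the 4 response markers and the 10 smallest p-values for a clone difference (mean of at least 5 CPM in some clone and treatment). They also named genes with no untreated count and a mean of at least 1 CPM after IFNG. Defining genes of a list were named at any value. The lists hold 620 different genes in 43 lists, of which 570 were tested.

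No library pair within a clone and treatment was a copy (chi-square per degree of freedom 1.95 to 19.5 over 18 pairs). The labels name several RNA amounts and adapter kinds but not which library had which, and no batch was checked. The fits were tested on simulated counts in which 200 genes, none among those with the fewest counts, changed by 1 on the log2 scale. Here edgeR found 200 in the pooled comparison (13343 genes, 7 false calls) and 187 within 1 clone (13374 genes, 14 false). Between clones it found 151 (13325 genes, 5 false). A single dispersion was used, and a far smaller share of genes changed than was called in the data. Smaller changes, as in most calls, were not simulated, so their recovery was not tested. Alternatives were DESeq2 1.42.0, RLE, upper-quartile and library-total scaling, other count filters, no clone term, counts summed per clone, all 30 libraries in 1 fit, and leaving out each clone or library. Tables and plots were made in Python 3.11.15 (pandas 2.3.3, numpy 2.4.6, matplotlib 3.10.9, scipy 1.17.1). Some genes that the rule names are not reported here.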

Additional observations from a re-analysis of the deposited data

Results flagged for a closer look

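In 8 of 276 groups of 9 libraries 1 library lay apart from the rest, by a gap to its neighbour that took more of the group's range than Dixon's 95% critical value for 9 values. Chance gives such a gap in about 1 in 20 groups. In untreated cells the share of the range was 1.0 for BC023105 and for Cxcl11, each of which had its single untreated count in 1 library, 0.826 for Serpina3f, 0.548 for Ccr1 and 0.503 for Slc26a11. After IFNG it was 0.575 for Cxcr4, 0.588 for Cd300lb and 0.540 for Apol6.

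Of 138 named genes, 50 differed in response between the clones by the interaction test of edgeR, against 2.47% of all genes tested. The named genes include those chosen for the smallest p of this test and for differing signs, so their share is partly set by that choice. The span between the largest and smallest log2FC of the 3 clones was widest for Cdc42ep2 at 2.22, followed by Acod1 at 1.90 and Dusp5 at 1.62. Among the remaining genes chosen for their clone difference it was 1.54 for Cemip2, 1.52 for both Csf1 and Cd40, 1.5 for Maff, 1.30 for Pim1, 1.22 for Fchsd2, 0.93 for S1pr1, 0.79 for Tlr13 and 0.71 for Atf3. Among the repressed genes it was 1.09 for Cd300lb, 1.06 for Cxcr4, 1.02 for Tcim, 0.99 for Fgd3, 0.93 for Trem1, 0.91 for Pxdc1, 0.68 for Dusp6, 0.42 for Hmox1, 0.38 for Apobec1, 0.36 for Tlr8, 0.35 for C5ar1 and 0.34 for Ifngr2.

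The span of signalling and transcription genes was 0.95 for Irf7, 0.87 for Socs3, 0.61 for Usp18, 0.52 for Cebpb, 0.47 for Nlrc5, 0.45 for Stat3 and 0.30 for Myd88. For effector and surface genes it was 1.08 for Cd274, 1.03 for Tnfaip3, 0.93 for Fas, 0.86 for Trib3, 0.79 for Ccrl2, 0.77 for Oasl2, 0.64 for Irgm1, 0.58 for Il15, 0.57 for Hk2, 0.55 for Fcgr4, 0.54 for Icam1, 0.47 for Ifi203, 0.45 for Gm8995 and for Igtp, 0.43 for Rnf213 and 0.33 for Trim21. For genes called with differing signs it was 0.97 for 6330403L08Rik, 0.71 for Maf and 0.51 for Zbtb38.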

How the results depend on the processing

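Without the clone term 1980 genes were higher and 1860 lower, against 3003 and 3187 with it. Without the filter on low counts 960 genes rose and 270 fell by more than 1 on the log2 scale, and 578 differed between clones, against 520, 157 and 332 with it. The count of clone differences was 19 without WT1 and 161 without WT3. Leaving out each library in turn gave 2869 to 3071 genes higher, 3030 to 3256 lower, 514 to 543 above 1, 146 to 170 below -1 and 263 to 435 with a clone difference. Within WT1 it gave 1374 to 1759 higher and 930 to 1464 lower, within WT2 2029 to 2286 and 1885 to 2075, and within WT3 2134 to 2708 and 1857 to 2547. The cause of these shifts was not tested. Of 43 gene lists, a count of members higher or lower (with the larger count at least 3) moved by over 1.5 times in 9 under library totals, 8 under the upper quartile, 9 without the clone term, 3 with counts summed per clone, 3 with the stricter count filter, 2 without WT1, 2 without WT2, 4 without WT3 and 0 under DESeq2, RLE, no count filter or all 30 libraries. Of 1633 recomputed values of named genes, 1607 kept their direction and their side of the threshold, 18 lost it (Tcim, Scd2, Fth1, H2-K1, Cx3cr1 and Tnfaip3 without the clone term, Aim2 without WT2, and Trim14 under 11 of its 12 alternatives, at 0.06 to 0.12) and 7 gained it. Those that gained it were Irf3 under library totals and the upper quartile, Fcer1g under library totals, Dusp5 over all 30 libraries and without WT1, and Maf and 6330403L08Rik without WT1. Zbtb38, not called in the pooled fit, changed sign to -0.18 without WT1. No paired analysis was possible because the count columns carry no replicate number of the labels. Depth limits genes near the floor, as those with no or few untreated counts have only a lower bound or a wide interval. In addition, 5 of 10 MHC class II genes and 7 of 16 cytokine genes did not pass the count filter of the main fit.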

Other observations

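Genes outside protein coding took part as well. Of the tested long noncoding RNA genes, 53 of 794 (6.68%) were ISGs and 11 were repressed genes. Of the tested protein-coding genes 418 of 11242 (3.72%) were ISGs and 141 were repressed. Of the pseudogenes 42 of 1042 (4.03%) were ISGs and 3 were repressed, and pseudogenes can share fragments with their parent genes. Of all ISGs, 60 overlapped another counted gene. By chromosome the share of tested genes that were ISGs was highest among the larger chromosomes on chromosome 1 (7.24% of 856) and chromosome 6 (6.19% of 678), against 3.87% of all genes, and 1.43% of 420 on the X chromosome.

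The lists not yet described moved as follows, beside 22.4% of all genes higher and 23.7% lower. Complement and Apol9 genes were 8 higher and 2 lower of 10 (median 0.61). Enzymes of tryptophan, nucleotide and sugar metabolism linked to interferon were 6 higher and 1 lower of 8. Adhesion molecules were 4 higher and 3 lower of 10, with 5 lower under library totals, the upper quartile or without WT1 and 0 without the clone term. Ribosome biogenesis genes were 4 higher and 1 lower of 16, with 7 higher without WT1. Cathepsin and lysosome genes were 3 higher and 3 lower of 14, a share near that of all genes, with 8 lower under library totals and 7 under the upper quartile. The replication-dependent histone genes were 1 higher and 1 lower of 8. Cholesterol efflux genes were 2 higher and 5 lower of 9, and unfolded protein response genes 1 higher and 5 lower of 11, and without the clone term both lists had 3 lower. Genes of microRNA processing were 1 higher and 3 lower of 13, with 8 lower under library totals or the upper quartile and 1 with counts summed per clone, without WT2 or without WT3.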
